A study of Mus musculus with 12 samples.

Results

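Cdkn2a, its neighbours Cdkn2b and Mtap, and 7 further genes of the G1 brake of the cell cycle (Cdkn1a, Cdkn1b, Cdkn2c, Ccnd1, Cdk4, Cdk6 and Rb1) were followed across 12 expression arrays of mouse lung tumours. These 10 genes were picked out of 15493 tested because Cdkn2a and Cdkn2b lay far lower in tumours resistant to anti-PD-1 while Mtap did not. They were chosen by the differences between the tumour lines in these same values, which are therefore given here as a description without a test. The effect of the antibody within each line, and the difference of that effect between the lines, played no part in the choice and were tested. All 10 genes were measured, by 22 probe sets (sets of short probes that each report 1 transcript or a few), of which 21 passed the filter on dim values.

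The tumours grew under the skin of female 129sv/ev mice from 344SQ cells, a lung adenocarcinoma line derived from mice that carry mutant Trp53. The cells were parental (Sen) or from a subline resistant to anti-PD-1 (Res), and neither the number of clones behind the subline nor the age of the mice is given in the sources used here. Control IgG or anti-PD-1 antibody, which blocks an inhibitory receptor of T cells, was injected on days 4 and 7 of tumour growth (10 mg/kg each time), and tumours were taken on day 11. The groups are Sen+IgG, Sen+PD1, Res+IgG and Res+PD1, each with 5 mice and 3 arrays. Which mice lie behind an array is not stated, so p-values measure the spread between arrays, which may be partly technical. In every group the RNA came from whole tumour, so that fewer cells of a type and less RNA per cell cannot be told apart.

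Entry into S phase is held back by the retinoblastoma protein, product of Rb1, which binds E2F transcription factors and keeps the genes of DNA replication off. Cyclin D1 (Ccnd1) with the kinases Cdk4 and Cdk6 phosphorylates this protein and releases E2F. The INK4 proteins, among them p15 from Cdkn2b, p16 from Cdkn2a and p18 from Cdkn2c, bind Cdk4 and Cdk6 and block them, while p21 (Cdkn1a) and p27 (Cdkn1b) also act on cyclin E and cyclin A complexes. Cdkn2a has a second product, Arf, made from another start and reading frame, which restrains Mdm2 and thereby stabilises p53. Mtap encodes the enzyme that salvages methylthioadenosine for the methionine cycle. It lies beside Cdkn2a and is often lost with it in cancers.

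Sen+IgG replicate 1 and Sen+PD1 replicate 3 stood farthest from the other arrays of their groups, by a root mean square log2 difference over genes of 0.399 and 0.435, against 0.210 to 0.356 for the other 10. A list of 14 skeletal muscle genes averaged 6.46 on the log2 scale in Sen+IgG replicate 1 against 10.62 and 9.85 in the other Sen+IgG arrays, and 11.27 in Sen+PD1 replicate 3 against 9.39 and 10.04. It ran from 9.03 to 9.96 in Res+IgG and from 6.06 to 9.03 in Res+PD1. The 15 epithelial tumour markers averaged 8.44 to 9.20 in Sen+IgG, 8.34 to 8.73 in Sen+PD1, 7.94 to 7.98 in Res+IgG and 7.97 to 8.10 in Res+PD1, and none of them was dim on all arrays. Across all 12 arrays the list means of T and NK cells ran from 4.31 to 6.21, macrophages from 8.12 to 9.26, fibroblasts from 9.21 to 10.48, endothelium from 5.43 to 7.11, keratinocytes from 5.73 to 6.54 (Trp63 dim on all arrays) and adipocytes from 5.13 to 8.78.

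Cdkn2a was bright in parental and near the dim end of the array in resistant tumours. Its only probe set, 1450140_a_at, read 6.81, 7.00 and 7.24 in Sen+IgG and 7.57, 7.09 and 7.13 in Sen+PD1, against 3.01, 3.94 and 2.92 in Res+IgG and 3.91, 3.97 and 3.49 in Res+PD1. Every resistant array lay below every parental one. The 2 lowest arrays, Res+IgG replicates 1 and 3, lay below 3.32, the 25th percentile of all values and the filter for dim probe sets. The resistant tumours were lower by a log2 difference of -3.73 (SE 0.25) under IgG and of -3.47 (SE 0.25) under anti-PD-1, or 11.1-fold. With the 2 dim arrays set to that filter, the difference under IgG was -3.49, at least 11.2-fold. From lowest to highest the group means were 3.29 in Res+IgG, 3.79 in Res+PD1, 7.02 in Sen+IgG and 7.26 in Sen+PD1, with overlap within each line and none between the lines. A single probe set cannot tell the p16 transcript from the Arf transcript.

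Cdkn2b showed the same division at a level that stayed measurable. Probe set 1449152_at read 9.54, 8.98 and 9.26 in Sen+IgG, 9.12, 8.87 and 8.38 in Sen+PD1, 6.08, 6.41 and 5.27 in Res+IgG, and 6.52, 5.89 and 5.70 in Res+PD1. No resistant array reached the parental range, and all 12 lay above the filter for dim values. The difference was -3.34 (SE 0.31) on the log2 scale under IgG, 10.1-fold lower, and -2.75 (SE 0.31) under anti-PD-1, 6.74-fold lower. Without any 1 array, the difference ran from -4.05 to -3.54 for Cdkn2a and from -3.59 to -3.02 for Cdkn2b under IgG. Under anti-PD-1 those ranges were -3.56 to -3.32 and -3.00 to -2.59. The epithelial tumour markers, whose levels are given above, had a median difference of -0.38 under IgG and -0.23 under anti-PD-1, and their part in the lower Cdkn2a and Cdkn2b was not tested.

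Mtap went the other way in all 4 of its probe sets. The brightest, 1424425_a_at, read 9.80, 9.24 and 9.61 in Sen+IgG, 9.34, 8.96 and 8.11 in Sen+PD1, 11.10, 10.90 and 10.63 in Res+IgG, and 10.79, 10.85 and 10.83 in Res+PD1. Every resistant array was above every parental one. The log2 differences over the 4 probe sets ran from 1.33 (SE 0.26) to 1.69 (SE 0.16) under IgG and from 1.94 (SE 0.21) to 2.39 (SE 0.16) under anti-PD-1. As the values of Cdkn2a and Cdkn2b on one side and Mtap on the other are what the genes were chosen for, their contrast is no independent result.

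**Figure D1:**
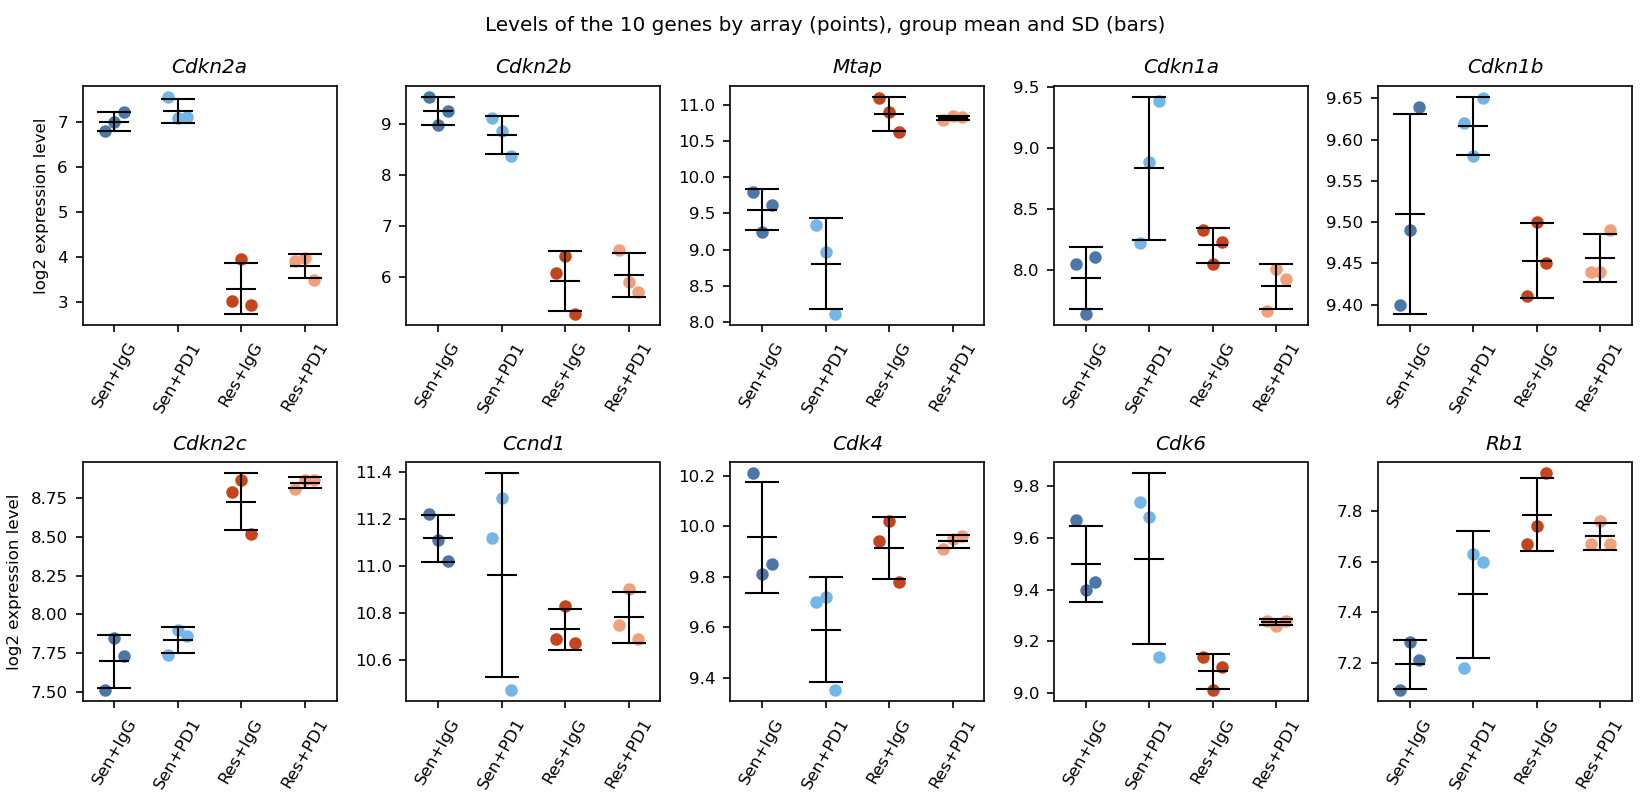
Log2 expression level of the 10 genes (the brightest probe set of each) on the 12 arrays, by group, with each array as a point and the group mean with its SD as a black bar; each panel has its own vertical scale. Cdkn2a and Cdkn2b are low, and Mtap and Cdkn2c high, in all 6 resistant arrays, while Cdkn1b spans only 9.40 to 9.65.

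The starts of the 3 genes of the locus are shown because their levels divide the lines. The sequences are the 250 bases before each start in RefSeq on mouse build GRCm38.p6, printed from 5′ to 3′ on the gene's strand. Of the 10 genes, 8 have such windows in the table used, with 11 starts in all, and windows of Ccnd1 and Rb1 were not used here. By textbook knowledge the upstream start of Cdkn2a gives Arf and the downstream one p16. Capitals mark matches to the GC box GGGCGG or to the cyclic AMP response element TGACGTC, searched on both strands.
Cdkn2a, upstream start (chr4:89294620-89294869, minus strand): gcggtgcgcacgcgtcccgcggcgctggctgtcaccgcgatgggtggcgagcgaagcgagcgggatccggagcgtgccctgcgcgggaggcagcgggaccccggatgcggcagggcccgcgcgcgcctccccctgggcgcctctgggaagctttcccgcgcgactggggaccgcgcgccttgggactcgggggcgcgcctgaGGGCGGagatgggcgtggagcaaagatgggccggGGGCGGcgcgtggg
Cdkn2a, downstream start (chr4:89282193-89282442, minus strand): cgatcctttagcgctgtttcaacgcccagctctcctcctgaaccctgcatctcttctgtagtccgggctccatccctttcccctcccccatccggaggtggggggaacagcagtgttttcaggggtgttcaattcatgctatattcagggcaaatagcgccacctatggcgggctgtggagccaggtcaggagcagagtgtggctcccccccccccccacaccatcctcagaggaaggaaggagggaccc
Cdkn2b (chr4:89311033-89311282, minus strand): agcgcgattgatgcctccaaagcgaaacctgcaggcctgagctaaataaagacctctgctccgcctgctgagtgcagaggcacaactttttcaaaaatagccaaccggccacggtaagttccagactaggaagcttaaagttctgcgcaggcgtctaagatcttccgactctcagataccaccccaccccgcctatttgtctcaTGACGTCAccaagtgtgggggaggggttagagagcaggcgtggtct
Mtap (chr4:89137120-89137369, plus strand): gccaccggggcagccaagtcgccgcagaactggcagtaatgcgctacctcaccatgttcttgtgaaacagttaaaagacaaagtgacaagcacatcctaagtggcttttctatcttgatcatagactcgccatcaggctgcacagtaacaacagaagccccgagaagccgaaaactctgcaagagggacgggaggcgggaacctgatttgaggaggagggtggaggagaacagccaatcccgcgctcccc

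The upstream window of Cdkn2a is 78.4% G and C and holds 2 GC boxes, and the downstream window is 60% G and C and holds no match. The Cdkn2b window (53.6%) holds 1 stretch that matches TGACGTC on both strands, overlapping itself, and the Mtap window (54.4%) has no match. Of 32851 windows of this length, 32.7% hold a GC box and 2.78% the TGACGTC motif. The AP-1 motif TGACTCA (4.46% of windows) and the E2F motif, TTTCGCG or TTTGGCG (1.93%), were not found in these 4 windows. A match describes letters only, and no binding was measured.

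The genes around the locus did not show the drop of Cdkn2a and Cdkn2b in resistant tumours. Some, among them Elavl2 and type I interferon genes, lay low in both lines and could hardly show a drop of that size. The 10 nearest tested genes on each side were taken from the gene order of chromosome 4, which puts Mtap next to Cdkn2a on one side and Cdkn2b on the other. Under IgG, 4 of these 20 neighbours were called higher in resistant tumours and 0 lower (limma, adjusted p under 0.05), or 20% against 16.2% of all genes. Under anti-PD-1, 6 were called higher and 1 lower, or 35% against 33.5% of all genes, a share near the background. Over all genes the calls were 1384 higher and 1133 lower under IgG and 3343 and 1843 under anti-PD-1. With each array centred on its median over the whole table they were 2102 and 887, and 5051 and 1300, and the neighbours gave 5 and 0, and 8 and 1. The neighbours' count under IgG came to 2 without any 1 of the 3 Sen+IgG arrays, and likewise without Res+IgG replicate 1 or replicate 2.

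The neighbours called in both comparisons were Tusc1, Caap1, Plaa and Ift74, on the side of Cdkn2b, next to each other and separated from it by Elavl2. These comparisons share no array, but they share the lines and 1 estimate of the spread from all 12 arrays. Elavl2 had group means of 4.27, 4.05, 4.21 and 4.28 in Sen+IgG, Sen+PD1, Res+IgG and Res+PD1. It was called higher under anti-PD-1 (0.23, limma adjusted p = 0.0412), a call kept in 8 of 20 alternative fits. Plaa, a ubiquitin-binding protein, rose by 0.64 (SE 0.076, limma adjusted p = 0.000545) under IgG and by 0.70 (SE 0.076, adjusted p = 0.000148) under anti-PD-1. Ift74, a component of the transport machinery of cilia, rose by 0.49 (SE 0.125, limma adjusted p = 0.0247) and by 1.12 (SE 0.125, adjusted p = 0.000169). The IgG call of Plaa was lost with its most variable probe set (0.50), and with the mean over probe sets its differences came to 0.24 and 0.30, both called. Tusc1 rose by 0.72 and 0.77, and Caap1, named for its part in apoptosis and caspase activity, by 0.51 and 0.93. Under IgG the calls of Caap1 (0.46 to 0.55) and Ift74 (0.42 to 0.52) were lost without any 1 Sen+IgG array or Res+IgG replicate 1 or 2, and that of Caap1 also without Res+IgG replicate 3 or Res+PD1 replicate 2 or 3. On the side of Mtap lie the type I interferon genes, of which Ifna4 was above the filter for dim values on 3 arrays, Ifna2 on 8 and the other 5 on all 12. Their group means ran from 2.86 for Ifna4 to 5.47 for Ifnz, and Ifna5 alone was called, under anti-PD-1 (0.37, limma adjusted p = 0.0441), a call lost without Sen+IgG replicate 2 or 3 or any 1 Sen+PD1 or Res+PD1 array (0.33 to 0.38), with array weights (0.34) and without both arrays farthest from their groups (0.33). Focad, Hacd4 and Klhl9, also on the side of Mtap, were above the filter on all 12 arrays, and none was called. Their differences were -0.20, 0.24 and -0.16 under IgG and 0.003, -0.40 and -0.033 under anti-PD-1. Jun, near the far end on the side of Cdkn2b, was the gene called lower under anti-PD-1 (-0.75, SE 0.18, limma adjusted p = 0.00972). With the mean over probe sets Jun came to -0.44, still called.

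**Figure D2:**
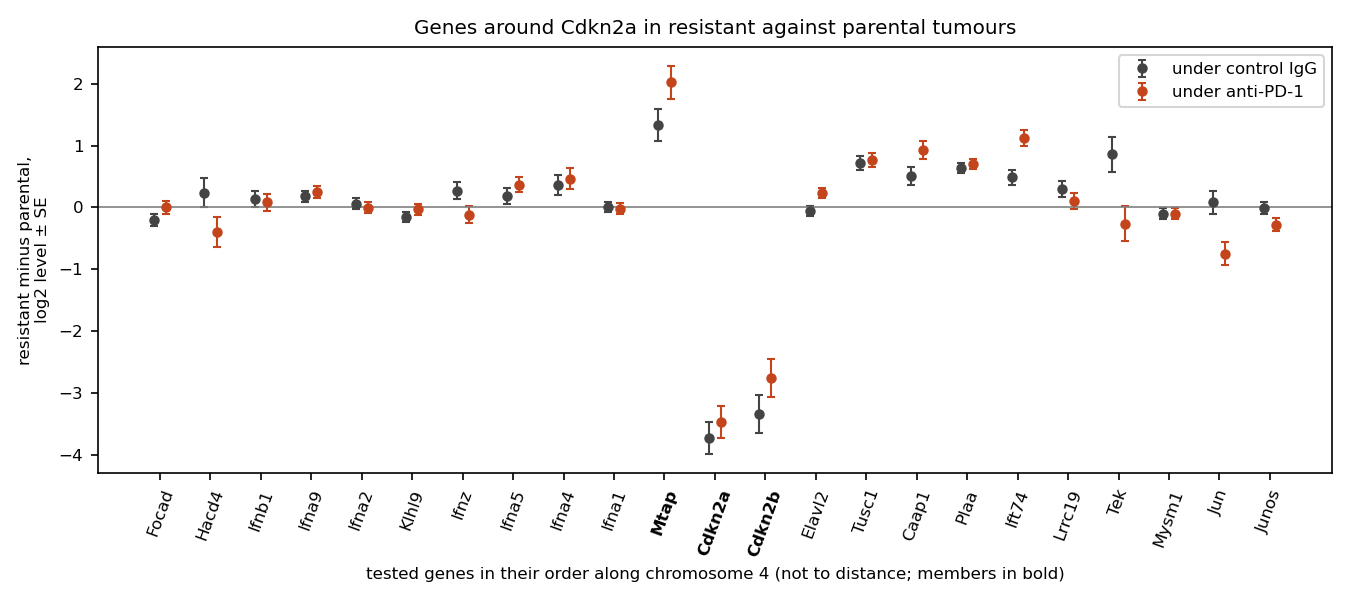
Resistant minus parental difference in log2 level (points) with its standard error (bars) for Mtap, Cdkn2a, Cdkn2b and 20 neighbouring tested genes, placed by gene order along chromosome 4 and not by distance, under control IgG (grey) and anti-PD-1 (red). Cdkn2a and Cdkn2b lie between -3.73 and -2.75, while Mtap directly beside Cdkn2a lies at 1.33 and 2.02.

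Cdkn2c, the INK4 inhibitor p18 encoded elsewhere on chromosome 4, was higher where Cdkn2a and Cdkn2b were lower. Its probe set 1416868_at read 7.51, 7.85 and 7.73 in Sen+IgG, 7.74, 7.90 and 7.86 in Sen+PD1, 8.79, 8.87 and 8.52 in Res+IgG, and 8.81, 8.87 and 8.87 in Res+PD1. The resistant arrays all lay above the parental ones, by 1.03 (SE 0.11) under IgG and 1.02 (SE 0.11) under anti-PD-1, or 2.04-fold and 2.02-fold. Leaving out single arrays kept the difference between 0.94 and 1.13 under IgG and between 0.97 and 1.05 under anti-PD-1.

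Cdkn1a, the p21 gene and a classic p53 target, had no fixed order between the lines. Probe set 1424638_at read 8.05, 7.64 and 8.11 in Sen+IgG, 8.22, 8.89 and 9.39 in Sen+PD1, 8.33, 8.05 and 8.23 in Res+IgG, and 7.66, 8.01 and 7.93 in Res+PD1. Resistant tumours overlapped parental ones under IgG (0.27, SE 0.24) and lay below them without overlap under anti-PD-1 (-0.97, SE 0.24). The second probe set, 1421679_a_at, gave 0.59 (SE 0.26) without overlap under IgG and -0.52 (SE 0.26) with overlap under anti-PD-1. Both probe sets were highest in Sen+PD1 replicate 3.

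Cdkn1b, the p27 gene, was nearly level. Its brighter probe set, 1434045_at, kept within 9.40 to 9.65 on all arrays and differed by -0.057 (SE 0.076) under IgG and -0.16 (SE 0.076) under anti-PD-1. The dimmer one, 1419497_at, lay between 5.12 and 5.98 and pointed up in resistant tumours, by 0.34 (SE 0.14) and 0.43 (SE 0.14), so the probe sets of Cdkn1b disagree in sign.

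Among the kinases and their cyclin, Cdk6 and Ccnd1 tended to be lower in resistant tumours, and Cdk4 was apart between the lines under anti-PD-1. Cdk6 probe set 1435338_at read 9.67, 9.40 and 9.43 in Sen+IgG, 9.74, 9.68 and 9.14 in Sen+PD1, 9.14, 9.01 and 9.10 in Res+IgG, and 9.28, 9.26 and 9.28 in Res+PD1. Its lines were apart under IgG and overlapped under anti-PD-1 through Sen+PD1 replicate 3, with differences of -0.42 and -0.25 (SE 0.14). All 3 Cdk6 probe sets were lower in resistant tumours, by -0.59 to -0.42 under IgG and by -0.72 to -0.16 under anti-PD-1.

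Ccnd1 probe set 1417420_at read 11.22, 11.11 and 11.02 in Sen+IgG, 11.12, 11.29 and 10.47 in Sen+PD1, 10.69, 10.83 and 10.67 in Res+IgG, and 10.75, 10.90 and 10.69 in Res+PD1. Sen+PD1 replicate 3 was the lowest of all 12 arrays. The 3 Ccnd1 probe sets were lower in resistant tumours by -0.41 to -0.31 under IgG without overlap, and by -0.22 to -0.18 under anti-PD-1 with overlap.

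Cdk4 probe set 1422441_x_at read 10.21, 9.81 and 9.85 in Sen+IgG, 9.70, 9.72 and 9.35 in Sen+PD1, 9.94, 10.02 and 9.78 in Res+IgG, and 9.91, 9.95 and 9.96 in Res+PD1. Its 3 probe sets differed by -0.073 to -0.043 under IgG and by 0.35 to 0.66 under anti-PD-1, where the groups did not overlap. The effect of the antibody on Cdk4 was not shown to differ between the lines (0.39, SE 0.18, limma adjusted p = 0.289). Probe sets 1422439_a_at (0.49, SE 0.17, limma adjusted p = 0.213) and 1422440_at (0.73, SE 0.29, adjusted p = 0.253) gave larger differences, also not called. Some probes of 1422441_x_at may match related sequences, as its suffix shows.

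Rb1 probe set 1417850_at read 7.09, 7.28 and 7.21 in Sen+IgG, 7.18, 7.63 and 7.60 in Sen+PD1, 7.67, 7.74 and 7.95 in Res+IgG, and 7.67, 7.76 and 7.67 in Res+PD1. It was higher in resistant tumours by 0.59 (SE 0.12) under IgG and 0.23 (SE 0.12) under anti-PD-1, without overlap in either case. The other Rb1 probe set, 1444400_at, stayed between 2.86 and 3.16, below the filter on all 12 arrays, and gives no comparison. Over the 10 genes the lines did not overlap for 7 under IgG, where 38.8% of all genes did not, and for 8 under anti-PD-1, where the share was 45.7%. Since the lines chose the genes, nothing follows from these counts.

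**Figure D3:**
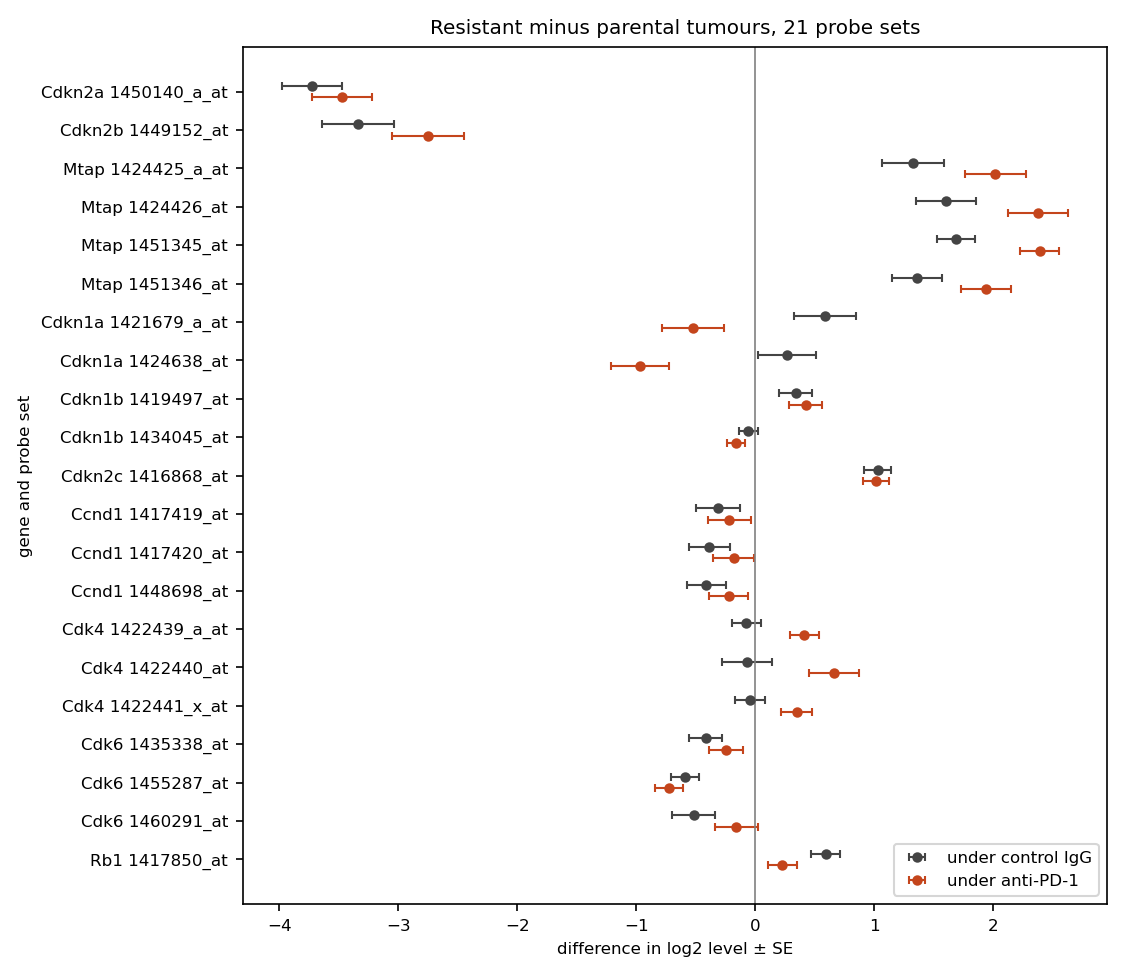
Resistant minus parental difference in log2 level (points) with its standard error (bars) for the 21 probe sets of the 10 genes that passed the filter, under control IgG (grey) and anti-PD-1 (red). The 4 Mtap probe sets lie together between 1.33 and 2.39, and the Cdkn1a and Cdk4 probe sets change side or distance between the antibodies.

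Anti-PD-1 was then compared with IgG within each line, the part of the design that the choice of genes did not use. In parental tumours 0 of the 10 genes passed limma's test (adjusted p under 0.05, which 3.5% of all genes passed), and 4 had an unadjusted p under 0.05, as 21.9% of all genes did. Cdkn1a was nearest, at 0.90 (SE 0.24, 95% interval 0.362 to 1.438, limma adjusted p = 0.0671), and higher in all 3 Sen+PD1 arrays than in any Sen+IgG array. Mtap stood at -0.75 (SE 0.26, limma adjusted p = 0.133), Cdk4 at -0.37 (SE 0.13, adjusted p = 0.133) and Rb1 at 0.28 (SE 0.12, adjusted p = 0.220). Groups did not overlap for Cdkn1a and Cdk4, 2 of 10, against 22.6% of all genes. Without Sen+PD1 replicate 1, which had the lowest Cdkn1a of its group, 3 genes were called, Cdkn1a (1.21), Mtap and Rb1.

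The other genes had 95% intervals that ran from negative to positive in parental tumours. Cdkn2a stood at 0.25 (95% interval -0.313 to 0.807, limma adjusted p = 0.620) and Cdkn2b at -0.47 (-1.146 to 0.206, adjusted p = 0.404). Cdkn2c stood at 0.14 (-0.106 to 0.379), Cdkn1b at 0.11 (-0.060 to 0.273), Ccnd1 at -0.16 (-0.536 to 0.223) and Cdk6 at 0.02 (-0.291 to 0.331). These data allow changes of the sizes within those intervals.

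At the level of probe sets, 1 of 21 passed in parental tumours, against 3.07% of all probe sets. It was Mtap probe set 1451345_at, which read 9.13, 8.49 and 8.87 in Sen+IgG and 8.23, 7.87 and 7.79 in Sen+PD1. It fell by 0.87 on the log2 scale (SE 0.16, limma adjusted p = 0.0257), with every Sen+PD1 array below every Sen+IgG array. The other Mtap probe sets stood at -0.78 to -0.63 with adjusted p from 0.110 to 0.132. The call was lost without Sen+IgG replicate 1 (-0.72), Sen+IgG replicate 3 (-0.85) or Sen+PD1 replicate 3 (-0.78), without both arrays that stood farthest from their groups (-0.63, limma adjusted p = 0.113), and in a fit of these 2 groups alone (adjusted p = 0.145). Without Sen+PD1 replicate 1, 6 of the 21 probe sets were called.

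In resistant tumours 0 of the 10 genes passed, and 0 had an unadjusted p under 0.05. Over all 15493 genes 0 passed limma's adjusted test, 738 had an unadjusted p under 0.05 (4.76%), and fits with array weights or with a trended, robust prior each called 1. Cdkn2a stood at 0.50 (95% interval -0.060 to 1.060, limma adjusted p = 0.896), Cdkn1a at -0.34 (-0.875 to 0.202, adjusted p = 0.896) and Cdk6 at 0.19 (-0.121 to 0.501, adjusted p = 0.896). Cdkn1a and Cdk6 were the 2 genes whose groups did not overlap, against 14.2% of all genes. The differences were smaller for Cdkn2b (0.12), Cdkn2c (0.12), Ccnd1 (0.05), Cdk4 (0.03), Cdkn1b (0.003), Mtap (-0.053) and Rb1 (-0.087). All their 95% intervals ran from negative to positive. The widest was that of Cdkn2b (-0.559 to 0.793), followed by Mtap (-0.629 to 0.522), and the narrowest that of Cdkn1b (-0.163 to 0.17). Changes of the sizes within those intervals remain possible.

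The antibody's effect on Cdkn1a differed between the lines by -1.24 (SE 0.35, 95% interval -1.998 to -0.476), which did not pass over all genes (limma adjusted p = 0.161). On probe set 1424638_at the anti-PD-1 arrays lay above the IgG arrays in parental and below them in resistant tumours, without overlap. Probe set 1421679_a_at differed by 0.71 (SE 0.26, limma adjusted p = 0.155) in parental tumours, with overlap, as it read 7.47, 6.91 and 7.15 in Sen+IgG and 7.28, 7.77 and 8.61 in Sen+PD1. In resistant tumours it differed by -0.40 (SE 0.26, adjusted p = 0.943), without overlap. The interaction was called for 0 of the 10 genes and for 0 of 15493, of which 2713 (17.5%) had an unadjusted p under 0.05, Cdkn1a alone among the 10. Without Sen+PD1 replicate 1 it was called for Cdkn1a (-1.54, limma adjusted p = 0.0463). In Sen+PD1 the marker lists of skeletal muscle (9.39, 10.04 and 11.27), fibroblasts (9.27, 9.53 and 10.48), endothelium (5.98, 6.19 and 7.11), macrophages (8.18, 8.86 and 9.26) and adipocytes (6.12, 6.61 and 7.38) rank the arrays as Cdkn1a does. In Sen+IgG they do not, since skeletal muscle (6.46, 10.62 and 9.85) was highest in replicate 2, where Cdkn1a was lowest (7.64). The lists of T and NK cells (5.07, 6.21 and 5.75), keratinocytes (6.08, 5.92 and 6.54) and epithelial tumour markers (8.73, 8.72 and 8.34) did not rank the Sen+PD1 arrays as Cdkn1a does. The muscle and adipocyte lists were lowest in Res+PD1 replicate 1, as was Cdkn1a in that group (7.66). None of the other marker lists was lowest there, and fibroblasts (9.67, 9.45 and 9.21) were highest there. The part of these lists in the Cdkn1a values was not tested.

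The window before the upstream start of Cdkn1a is printed because p53 acts on this gene, with matches to the p53 recognition decamer in capitals.
Cdkn1a, upstream start (chr17:29090729-29090978, plus strand): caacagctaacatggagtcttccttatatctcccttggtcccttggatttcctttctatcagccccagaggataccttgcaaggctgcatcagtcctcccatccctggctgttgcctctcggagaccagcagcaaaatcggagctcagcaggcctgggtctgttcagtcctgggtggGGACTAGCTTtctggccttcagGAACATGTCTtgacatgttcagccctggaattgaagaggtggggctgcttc

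It holds 2 of them, a match that 7.13% of all windows have at least once. They overlap none of the other motifs searched. No p53 binding was measured, and the line comes from mice with mutant Trp53.

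**Figure D4:**
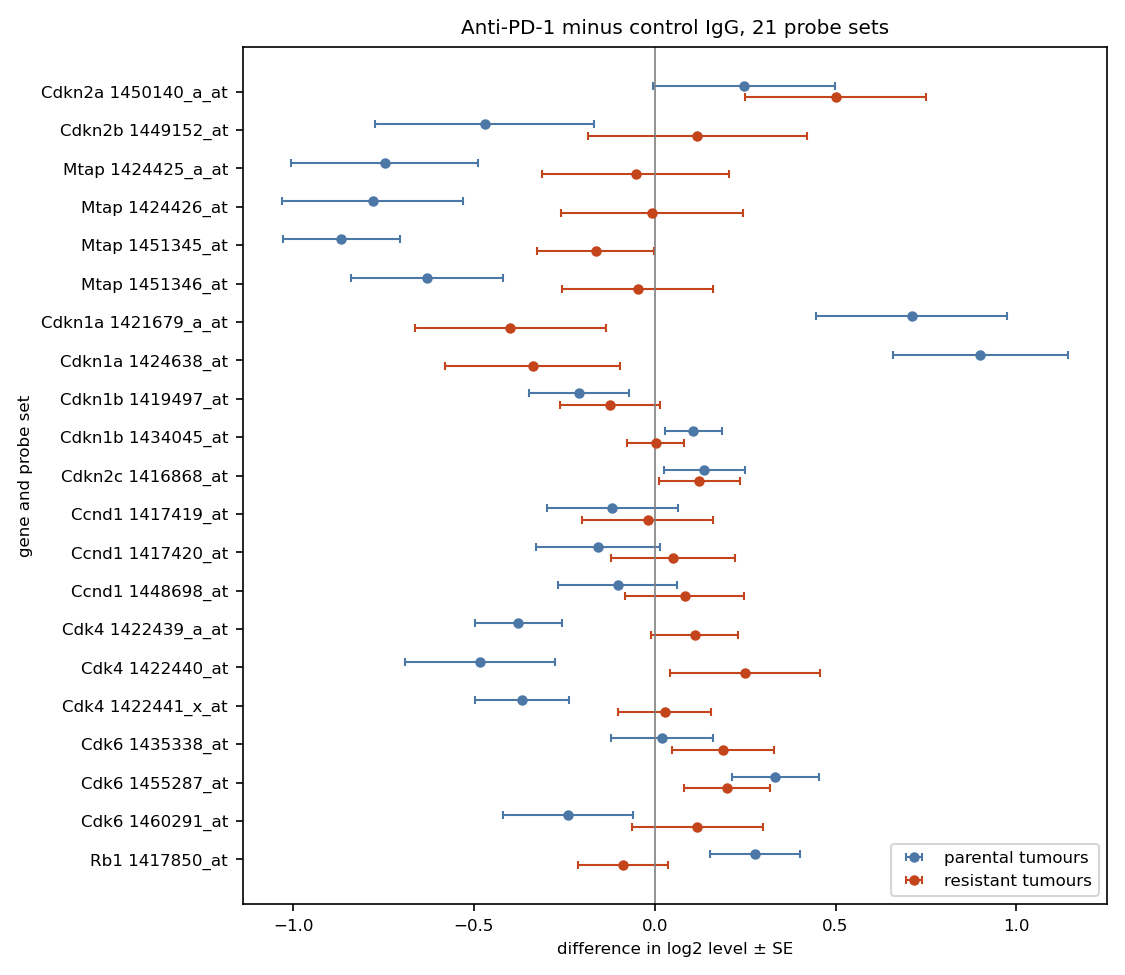
Anti-PD-1 minus IgG difference in log2 level (points) with its standard error (bars) for the 21 probe sets, in parental (blue) and resistant (red) tumours. Both Cdkn1a probe sets lie to the right of 0 in parental and to the left in resistant tumours, and the 4 Mtap probe sets lie to the left in parental tumours, where 1451345_at (-0.87) passed the test.

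Genes downstream of the brake were counted from lists that leave out the 10 genes. E2F targets, many of which encode the replication machinery, were called higher in resistant tumours for some members and lower for none. Of 28 tested, 6 were called higher and 0 lower under IgG (21.4%, against 16.2% of all genes), and all 28 differences were positive, with a median of 0.41 against 0.067 over all genes. Under anti-PD-1, 17 were called higher and 0 lower (60.7% against 33.5%), with a median of 0.73 against 0.073. Gins2, part of the replication helicase, rose by 1.16 (SE 0.21, limma adjusted p = 0.00559) under IgG and by 1.82 (SE 0.21, adjusted p = 0.000216) under anti-PD-1. Mcm5, another helicase subunit, rose by 1.18 (limma adjusted p = 0.0159) under IgG, and Cdc6, which loads the helicase, by 1.53 (adjusted p = 0.00527) under anti-PD-1. The call of Mcm5 was lost without Sen+IgG replicate 3 (1.09) or Res+IgG replicate 1 (1.15).

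The number of E2F targets called moved with single arrays, and their sign did so for few. Under anti-PD-1 all 28 stayed positive without any 1 array, and under IgG at least 25 did, the fewest without Sen+IgG replicate 3. Under IgG the count called came to 1 without Sen+IgG replicate 3, to 2 without Res+IgG replicate 1 or 2, to 11 without Sen+PD1 replicate 2 and to 13 without Sen+PD1 replicate 3. Under anti-PD-1 the count ran from 12 to 27 without single arrays, with 27 reached without Sen+PD1 replicate 2. Without both arrays that stood farthest from their groups, 11 and 14 were called higher and all 28 stayed positive, with medians of 0.38 and 0.44. The mean of the list was 7.96 to 8.20 in Sen+IgG, 7.87, 8.21 and 7.25 in Sen+PD1, 8.50 to 8.55 in Res+IgG and 8.45 to 8.71 in Res+PD1, so that every resistant array lay above every parental one.

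Under anti-PD-1 in parental tumours all 28 E2F targets had a negative difference, with a median of -0.30 against -0.007 over all genes, but 1 was called (3.57% against 3.5%). It was Pcna, the sliding clamp of DNA polymerase, which fell by 0.46 (SE 0.093, limma adjusted p = 0.0329). Without both arrays that stood farthest from their groups the list had 14 positive and 13 negative differences, a median of 0.008 and 0 calls. The call of Pcna was lost without any 1 of the 3 Sen+IgG arrays, Sen+PD1 replicate 3, Res+IgG replicate 1 or any 1 of the Res+PD1 arrays, with differences of -0.50 to -0.38. It was also lost in a fit of these groups alone and without both arrays that stood farthest from their groups (-0.38), and the same held for Cdk7 (-0.37), Btg2 (0.50), Bmi1 (-0.32) and Apip (-0.48), the genes called for anti-PD-1 in the lists that follow. In resistant tumours 0 of 28 were called.

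**Figure D5:**
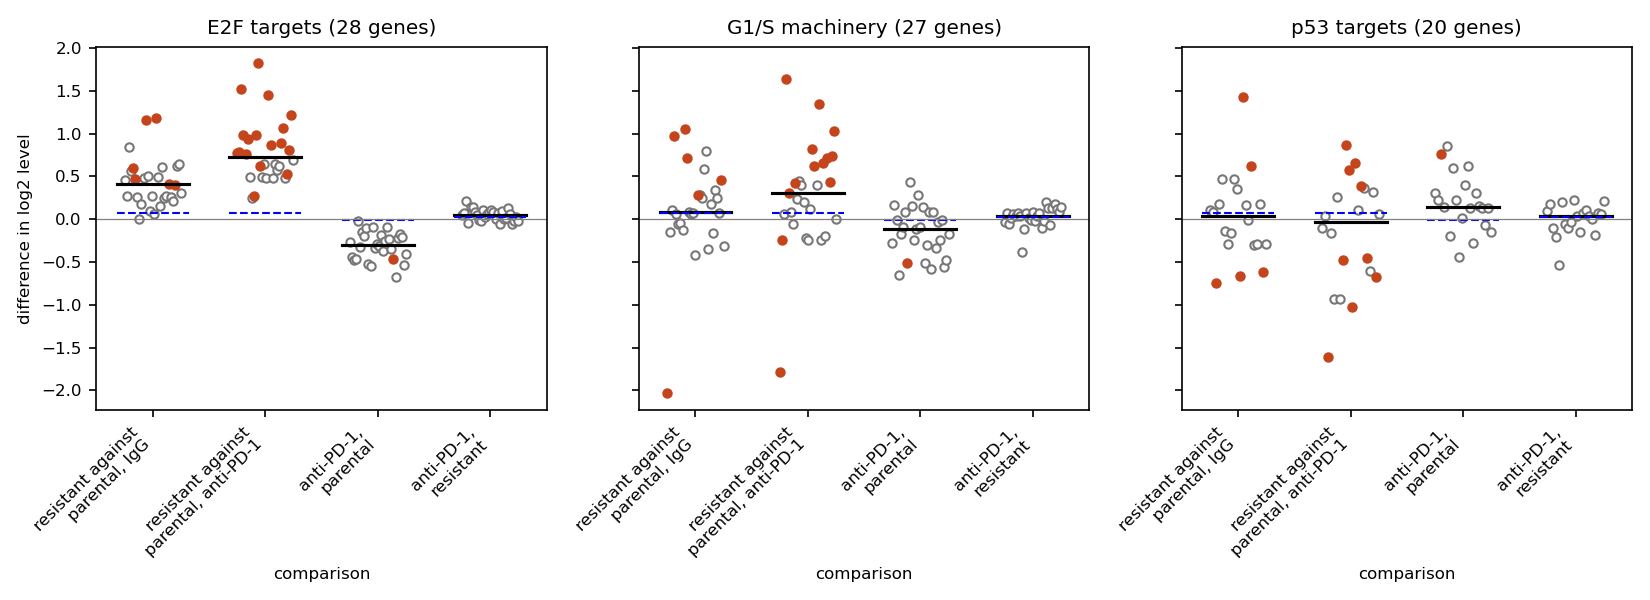
Difference in log2 level of each gene in 3 lists (points; red where limma's adjusted p was under 0.05), with the median of the list (black line) and of all 15493 genes (dashed blue line), in 4 comparisons. All 28 E2F targets lie above 0 between the lines, and below 0 for anti-PD-1 in parental tumours, where leaving out 2 arrays brought the median from -0.30 to 0.008.

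The rest of the G1/S machinery moved in both directions between the lines. Under IgG 5 of 27 genes were called higher and 1 lower (22.2%, against 16.2% of all genes), with a median of 0.087. Under anti-PD-1 11 were called higher and 2 lower (48.1% against 33.5%), with a median of 0.30. Ccnd2, cyclin D2 and the closest relative of the Ccnd1 product, fell most, with a difference of -2.03 (SE 0.13, limma adjusted p = 2.14e-05) under IgG and -1.79 (SE 0.13, adjusted p = 2.92e-05) under anti-PD-1, and it was called in all 23 alternative fits of each comparison. Its group means were 10.04 in Sen+IgG, 9.76 in Sen+PD1, 8.01 in Res+IgG and 7.98 in Res+PD1. Ccne2, cyclin E2, rose by 0.98 (SE 0.25, limma adjusted p = 0.0242) and by 1.64 (SE 0.25, adjusted p = 0.000809), and Cdkn1c, the p57 inhibitor, rose by 1.05 under IgG (SE 0.28, adjusted p = 0.0287). Under IgG the call of Ccne2 was lost without Sen+IgG replicate 1 or 3 or any 1 Res+IgG array (0.83 to 1.00), and that of Cdkn1c without Sen+IgG replicate 2 or 3 or any 1 Res+IgG array (0.95 to 1.11).

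Under anti-PD-1, E2f8, a repressive member of the E2F family, rose by 1.35 (SE 0.32, limma adjusted p = 0.00771), and Ccnd3, cyclin D3, fell by 0.25 (adjusted p = 0.0249). That call did not hold without Sen+PD1 replicate 1 or 2 or Res+PD1 replicate 2 or 3 (-0.24 to -0.21), nor with whole-table centring (-0.14), the mean over probe sets (-0.16), the most variable probe set (-0.13) or a fit of both groups alone. With the mean over probe sets E2f8 came to 0.84, still called. The count under IgG, 6 in all, came to 3 without Sen+IgG replicate 1 or 2, to 2 without Sen+IgG replicate 3 or Res+IgG replicate 1, and to 1 without Res+IgG replicate 2. In parental tumours anti-PD-1 left 1 gene called, Cdk7, the kinase that activates other Cdks, which fell by 0.52 (SE 0.11, limma adjusted p = 0.0358). Its call was lost without any 1 Sen+IgG array, Sen+PD1 replicate 3, Res+IgG replicate 1 or any 1 Res+PD1 array, with differences of -0.56 to -0.43, and with the mean over probe sets (-0.35) or the most variable one (-0.48).

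Genes that p53 is known to switch on had no common direction. The line comes from mice with mutant Trp53 and the RNA from whole tumour, so these genes need not report p53 in tumour cells. Of 20 tested, 2 were called higher and 3 lower under IgG (25%, against 16.2% of all genes), and 4 and 5 under anti-PD-1 (45% against 33.5%). The medians were 0.038 and -0.033 (0.095 and 0.073 with arrays centred on the median of the whole table). Pmaip1, the cell death gene Noxa, rose by 1.43 (SE 0.19, limma adjusted p = 0.000932) under IgG and by 0.65 (SE 0.19, adjusted p = 0.0207) under anti-PD-1. Btg2, which slows proliferation, fell, with differences of -0.75 (SE 0.18, limma adjusted p = 0.0203) and -1.61 (SE 0.18, adjusted p = 0.000185), and so did Plk2 (-0.66 and -1.02). With the mean over probe sets the IgG call of Plk2 was lost (-0.33), and Plk2 under anti-PD-1 came to -0.54, still called. Sesn1, a stress sensor, rose by 0.62 under IgG (limma adjusted p = 0.0204; 0.33, still called, with the mean over probe sets), and Perp, a junction protein, rose by 0.87 under anti-PD-1 (adjusted p = 0.00667). The count under IgG came to 3 without Res+IgG replicate 2. Under IgG the call of Btg2 was lost without Sen+IgG replicate 2 or 3 or Res+IgG replicate 2 (-0.77 to -0.65), and that of Sesn1 without Sen+IgG replicate 1 or any 1 Res+IgG array (0.47 to 0.65). Under anti-PD-1 that of Pmaip1 was lost without Sen+PD1 replicate 1 or Res+PD1 replicate 2 or 3 (0.43 to 0.64) or in a fit of both groups alone. In parental tumours Btg2 was the 1 gene called for anti-PD-1 (0.76, SE 0.18, limma adjusted p = 0.0477). Of 23 alternative fits 8 kept that call, and among single arrays left out only the fit without Sen+PD1 replicate 1 did.

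Genes listed as regulators of the Cdkn2a locus, among them Polycomb proteins, which silence it, and Ets and Id factors, were also mixed. The list pools activators with repressors and holds Mdm4, which acts on p53. Its counts therefore give no direction for the locus. Of 24 tested, 1 was called higher and 3 lower under IgG (16.7%, against 16.2% of all genes). Under anti-PD-1, 5 were called higher and 10 lower (62.5% against 33.5%). Id1, an antagonist of Ets and of basic helix-loop-helix factors, rose by 0.77 (SE 0.16, limma adjusted p = 0.0107) and by 0.81 (SE 0.16, adjusted p = 0.00373). Bmi1, the Polycomb subunit best known for repressing Cdkn2a, rose by 0.81 (SE 0.093, limma adjusted p = 0.000202) under anti-PD-1 and stood at 0.25 (adjusted p = 0.0930) under IgG. The other Polycomb genes called under anti-PD-1 went both ways. Ring1 (0.30), Rnf2 (0.24) and Eed (0.24) were higher, and Cbx7 (-0.58), Ezh1 (-0.57) and Jarid2 (-0.61) lower. Jarid2 was called lower under IgG too (-0.36). Alternative fits of these calls are not given. Foxo1 fell (-0.48 and -0.63), as did Mdm4, a p53 antagonist, under IgG (-0.55) and Tbx3, a repressor of the locus, under anti-PD-1 (-0.71). Tbx3 lay near the filter for dim values, with group means of 4.14 in Sen+PD1 and 3.42 in Res+PD1. With the mean over probe sets the IgG calls of Foxo1 (-0.28) and Mdm4 (-0.12) were lost, and under anti-PD-1 Foxo1 came to -0.33 and Tbx3 to -0.20, both still called. The count under IgG came to 8 without Sen+PD1 replicate 3. Anti-PD-1 in parental tumours called Bmi1 lower (it fell by 0.41, limma adjusted p = 0.0403), a call lost without any 1 Sen+IgG array, Sen+PD1 replicate 3, Res+IgG replicate 1 or 2, or any 1 Res+PD1 array, with differences of -0.42 to -0.31, or with the mean over probe sets (-0.46).

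Around Mtap, enzymes of methionine salvage and polyamine synthesis and the Prmt5 complex, which methylthioadenosine inhibits, gave 2 of 11 genes called higher and 0 lower under IgG (18.2%), and 5 and 0 under anti-PD-1 (45.5%). Of all genes 16.2% and 33.5% were called in these comparisons. Srm, spermidine synthase, rose by 0.61 (SE 0.18, limma adjusted p = 0.0415) and by 0.94 (SE 0.18, adjusted p = 0.00273), Got1 by 0.55 under IgG (adjusted p = 0.00416) and Prmt5 by 0.72 under anti-PD-1 (adjusted p = 0.00556). The count under IgG came to 1 without Sen+IgG replicate 2 or 3, Res+IgG replicate 1 or 2, or any 1 Res+PD1 array, and the call of Srm was lost in these and without Res+IgG replicate 3 (0.52 to 0.66). In parental tumours anti-PD-1 called Apip, an enzyme of the salvage route, lower (it fell by 0.48, limma adjusted p = 0.0424). That call was lost without any 1 Sen+IgG array, Sen+PD1 replicate 2 or 3, Res+IgG replicate 1 or any 1 Res+PD1 array, with differences of -0.55 to -0.41. In resistant tumours 0 genes were called for the antibody in these 5 lists or among the 20 neighbours of Cdkn2a.

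The genes whose profile over the 12 arrays was most like that of Cdkn2a were ranked by the root mean square difference of log2 values after centring each gene on its mean. Cacna1h, a calcium channel subunit on chromosome 17, came first at 0.430, with group means of 7.30, 7.67, 3.97 and 4.31 in Sen+IgG, Sen+PD1, Res+IgG and Res+PD1. Cdkn2b followed at 0.495. Kdm5d, a histone demethylase of the Y chromosome, stood at 0.563, with group means of 6.43, 5.75, 2.23 and 2.09. Ehf, an epithelial Ets factor, and Afp, alpha-fetoprotein, both stood at 0.589. Each of these profiles is set mainly by the distance between the lines, and they share the 12 arrays.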

How the data were processed

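Total RNA of whole tumours was hybridised to Affymetrix Mouse Genome 430 2.0 arrays, as the labels' protocols say. The values deposited by the authors are log2 levels, 1 for each probe set and array. That scale was read from the values (1.62 to 13.88), and the sources used here do not give how background and arrays were normalized. Of 45101 probe sets, 34945 carried 1 gene in the platform annotation and were used, 932 carried several and 9160 none. The brightest probe set stood for its gene, and genes above 3.32 (the 25th percentile) on at least 3 arrays were kept, 15493 genes and 28634 probe sets.

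The model, limma 3.58.1 in R 4.3.3, gave each group its mean and shared the spread of the 12 arrays, with 8 degrees of freedom from residuals and 2.98 from the prior. Two-sided p-values were adjusted over all genes, or all probe sets, of a comparison (Benjamini-Hochberg) and called under 0.05. The code was tested on simulated data. Scripts ran in Python 3.11.15. The number of arrays limits the precision.

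The 10 genes and the lists (G1/S machinery, E2F targets, p53 targets, regulators of Cdkn2a, methionine salvage, cell type markers) were chosen with earlier results of these data known. Named in each list were the 2 highest and 2 lowest called genes per comparison, all neighbours called in a comparison of the lines, and the 5 profiles most like Cdkn2a. Ring1, Rnf2, Eed, Cbx7, Ezh1 and Jarid2 were added to these as the other called Polycomb genes, after their values were seen. Uncalled genes of the lists are left out of the text, except Bmi1 under IgG, named after its value was seen. Among uncalled neighbours, the interferon genes, Focad, Hacd4 and Klhl9 are described. The median difference of all genes between the lines moved from 0.067 to 0.123 under IgG and from 0.073 to 0.18 under anti-PD-1 when arrays were centred on the median of the whole table, a setting chosen after seeing the data, as was the bound for dim Cdkn2a arrays.

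Arrays carry the numbers 1 to 3 in every group. Same-numbered arrays deviated from their group means together, with correlations of 0.113, 0.123 and 0.174 between Res+IgG and Res+PD1 and of 0.411, 0.181 and 0.438 between Sen+IgG and Res+PD1, which meet the rule of more than 0.1 for each pair. The other group pairs do not, and Sen+IgG and Sen+PD1 gave 0.636, 0.057 and 0.44. No label says what a number shares. Part of the genotype of the cell line is not reported here. Alternatives covered centring, filters, choice of probe set, array weights, groups fitted, a trended prior, a replicate block and leaving out arrays.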

Additional observations from a re-analysis of the deposited data

Results flagged for a closer look

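The effect of anti-PD-1 on Cdkn1a had opposite signs in the lines, 0.90 in parental and -0.34 in resistant tumours, with all 3 anti-PD-1 arrays above all 3 IgG arrays in the former and below them in the latter on the brighter of its 2 probe sets. On the other, 1421679_a_at, the parental groups overlapped (0.71). The difference of the effects was -1.24 on the log2 scale. Limma's test of that difference did not pass (adjusted p = 0.161, and 0.0463 to 0.316 over 22 alternative fits), so the lines are not shown to differ.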

How the results depend on the processing

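For anti-PD-1 in parental tumours 542 genes were called, against 918 with array weights, 0 in a fit of the 2 groups alone, 100 without both arrays that stood farthest from their groups, 725 with the replicate block and 9 to 712 without single arrays. None of the 10 genes was called there, but 1 with the most variable probe set of each gene and 0 to 3 without single arrays. Of their 21 probe sets 1 was called, against 2 with array weights, 0 in the fit of 2 groups, 0 without both arrays and 0 to 6 without single arrays. In resistant tumours 0 genes were called, but 1 with arrays centred on the whole table, 1 with array weights, 1 with a trended and robust prior, and 0 to 1 without single arrays. For the interaction 0 were called, but 121 with array weights, 3 with the replicate block and 0 to 78 without single arrays, and of the 10 genes 0 to 1. Between the lines under IgG 2517 were called, 5152 with array weights and 1273 to 3483 without single arrays. The most variable probe set moved the line difference of Mtap under anti-PD-1 from 2.02 to 2.393. The replicate block called none of the 10 genes in any tested comparison and kept Mtap 1451345_at in parental tumours (adjusted p = 0.0297). It lost Apip there (-0.483, adjusted p = 0.0514), the only call of the lists that it lost among those named as highest or lowest.

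Signs turned only for differences that no fit called. For anti-PD-1 in parental tumours, Cdkn1b turned to -0.052 with the mean of its probe sets and -0.21 with the most variable one, Ccnd1 to 0.084 with array weights, 0.14 without both arrays and -0.322 to 0.088 without single arrays, and Cdk6 to -0.007 with whole-table centring and -0.09 to 0.21 without single arrays. In resistant tumours, array weights gave Cdkn2b -0.004, the mean of probe sets Cdkn1b -0.06, and the most variable probe set Cdkn1b -0.123 and Ccnd1 -0.02. Without single arrays there, Cdkn2b ran from -0.208 to 0.362, Mtap from -0.177 to 0.058, Cdkn1b from -0.018 to 0.027, Ccnd1 from -0.01 to 0.10 and Cdk4 from -0.04 to 0.08. In the interaction the most variable probe set gave Cdkn1b 0.087 and Cdk6 -0.133, array weights gave Ccnd1 -0.02 and Cdk6 -0.035, and leaving out both arrays gave Cdkn2c 0.093, Ccnd1 -0.09 and Cdk6 -0.105. Cdkn2c was 0.01 with centring on named probe sets and 0.037 on the whole table. Without single arrays Cdkn2c ran from -0.117 to 0.08, Ccnd1 from -0.038 to 0.372 and Cdk6 from -0.02 to 0.28. Between the lines under anti-PD-1, described without a test, Cdkn1b was 0.133 with the mean of its probe sets and 0.427 with the most variable one. Under IgG, also without a test, Cdk4 ran from -0.117 to 0.083 and Cdkn1b from -0.112 to 0.008 without single arrays. The cause was not tested for these changes. The dim Cdkn2a values of resistant tumours limit how well their distance from parental ones is measured.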
